A study of Mus musculus with 35 samples.

Results

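The Toll-like receptors measured here are 10 genes, Tlr1, Tlr2, Tlr3, Tlr4, Tlr5, Tlr6, Tlr7, Tlr9, Tlr12 and Tlr13, chosen by name from the 55401 genes of the count table. All 10 passed the filter on low counts that left 17612 genes for testing. Toll-like receptors are membrane proteins that recognise conserved molecules of microbes and of damaged cells. Some act at the cell surface, where they bind lipids and proteins, and others act in endosomes, where most bind nucleic acids. Through adaptor proteins they switch on inflammatory and interferon genes, and in the brain microglia, the resident macrophages, are a main site of their expression.

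Microglia were isolated from the whole brains of wild-type C57BL/6 mice at postnatal day 6 (P6), P15 and 8 weeks. Dissociated cells were captured on dishes coated with an antibody against CD45, a surface protein of all white blood cells, which border macrophages and blood leukocytes also carry. Meninges and visible clots had been taken off the brains by hand, and the study also estimated the monocyte and macrophage share of its libraries, a value not used here. Each mouse gave 1 library, with 5 females and 6 males at P6, 6 and 6 at P15, and 6 and 6 at 8 weeks. No mouse was treated. Results are over the 34 mice that the study kept (10 at P6, 12 at P15 and 12 at 8 weeks), without P6 female 6. The study left out 1 outlying mouse that its text does not name, and P6 female 6 is absent from the 34 mice of its listed scaling coordinates. Its values are given separately.

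Levels are CPM, the counts of a gene scaled to the library total, after normalisation by the trimmed mean of M values (TMM), and changes are log2 fold changes (log2FC) with their standard errors (SE). A change was called when the adjusted p (FDR) of edgeR's two-sided quasi-likelihood test over all 17612 genes was below 0.05. Fragments counted per mouse ranged from 23316107 to 38965078. All 6 microglial and all 8 pan-myeloid markers were detected at every age. The summed level of the microglial markers ranged from 4427 to 8188 CPM at P6, from 9907 to 20433 CPM at P15 and from 14528 to 19825 CPM at 8 weeks. Summed neuronal markers ranged from 276 to 926 CPM at P6, from 89.5 to 693 CPM at P15 and from 48.4 to 212 CPM at 8 weeks. Of the 6 neuronal markers, 4 were lower at 8 weeks than at P6, namely Tubb3 (log2FC −4.92), Stmn2 (−4.15, FDR 2.17e-12), Rbfox3 (−2.05) and Nefl (−0.48, FDR 0.0279), only Snap25 was higher (0.99, FDR 6.13e-03), and Syt1 did not pass (−0.11, FDR 0.739). The median summed level of astrocyte markers was 620, 1428 and 1266 CPM in order of age, and that of oligodendrocyte markers 248, 1225 and 441 CPM. Markers of dividing cells averaged 6.81, 4.19 and 1.42 log2 CPM. The age of the mice and the makeup of the captured cells therefore moved together, and in bulk samples fewer cells of a type and less RNA per cell cannot be told apart.

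P15 male 1 stood apart. It had the lowest P15 level of 8 of the 10 receptors (not of Tlr9 and Tlr12), such as 59.5 CPM of Tlr7 beside a P15 median of 199 CPM. Its microglial markers were the lowest at P15 (mean log2 CPM 9.90) and its oligodendrocyte markers the highest (7.62). Without it, Tlr6 lost its call between P15 and 8 weeks (log2FC 0.25, FDR 0.0525) and no other age call of a receptor changed. Over the same interval Tlr4 then had a log2FC of 0.43, Tlr7 of 0.39 and Tlr1 of 0.36.

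Between P6 and P15, 8 of the 10 receptors rose, Tlr2 fell, and Tlr1 did not pass the test. Over all genes tested, 30.4% rose and 31.4% fell. The median log2FC of the receptors was 1.17, beside −0.014 over all genes. Tlr3, Tlr5 and Tlr12 also passed a test against a 2-fold change, which 4.87% of all genes passed upwards. Between P15 and 8 weeks, 8 receptors rose and none fell, against 24% and 23.9% of all genes, while Tlr5 and Tlr9 did not pass. The median was then 0.53, and no receptor passed the 2-fold test, against 1.2% of all genes. From P6 to 8 weeks, 9 receptors rose, none fell and Tlr2 did not pass (37.8% and 36.6% of all genes rose and fell). The median was 1.61, and Tlr3, Tlr4, Tlr5, Tlr9, Tlr12 and Tlr13 passed the 2-fold test, against 11.5% of all genes.

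**Figure D1:**
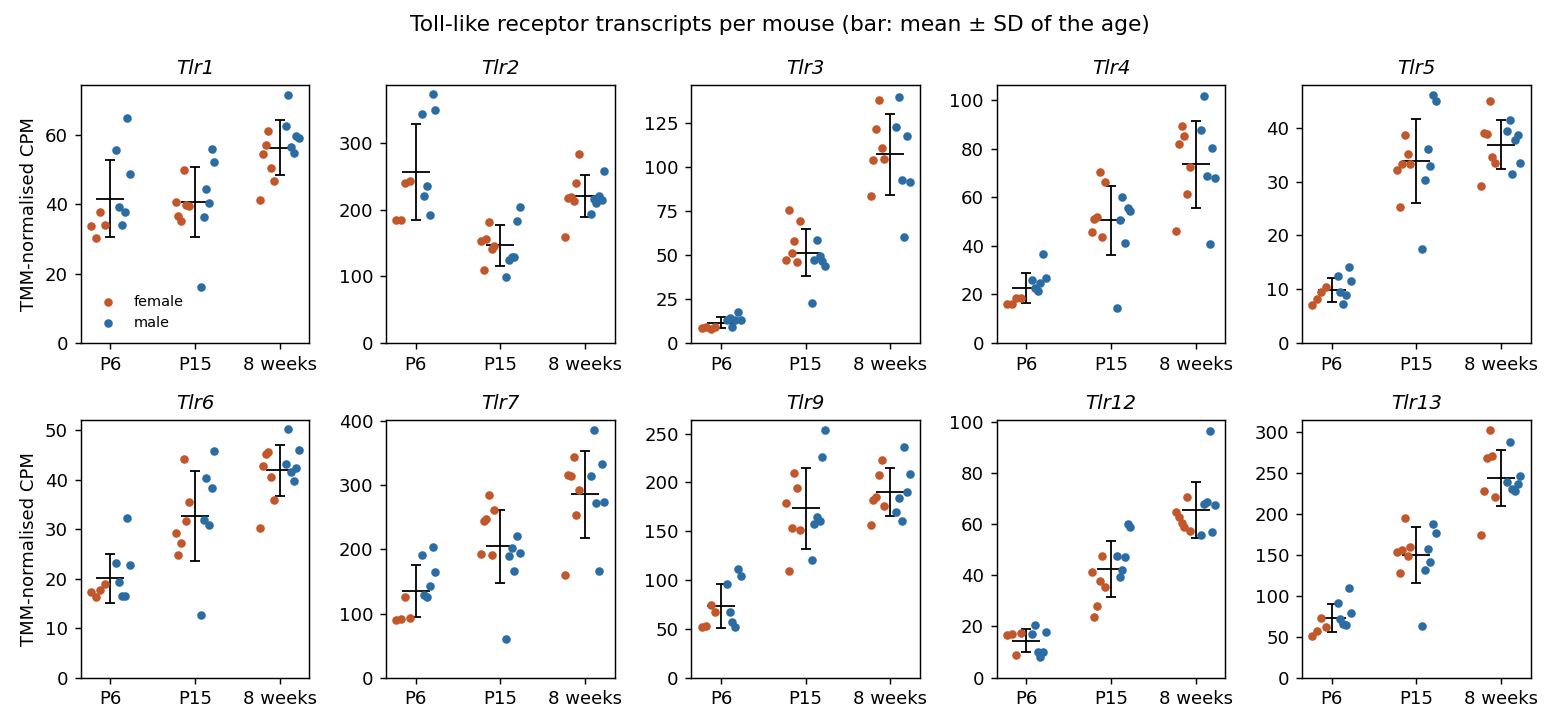
TMM-normalised CPM (vertical axes, each from 0) of the 10 Toll-like receptors in each of 34 mice by age, with females in orange, males in blue, and the mean ± SD of each age in black. The 12 mice at 8 weeks lie between 60.3 and 139.9 CPM for Tlr3, all above the 10 mice at P6, whereas for Tlr2 the P6 and 8-week mice overlap and most P15 mice are lower.

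Of the 5 endosomal receptors Tlr3 had the largest log2FC in each age comparison and the lowest mean RPKM (CPM per kilobase of exon) at each age, 2.19, 9.83 and 20.6. Its range overlapped that of Tlr12 at every age. At 8 weeks the mean of Tlr12 was 20.7, and Tlr12 was above Tlr3 in only 5 of 12 mice, so the 2 could not be ranked there. Tlr3 is the receptor for double-stranded RNA and the only member that does not use Myd88. Tlr3 lies on chromosome 8 (45395665 to 45411080, minus strand, GRCm38). Its level ranged from 7.73 to 17.8 CPM at P6 (median 11.02), from 22.9 to 75.4 CPM at P15 (median 48.2) and from 60.3 to 139.9 CPM at 8 weeks (median 107.6). Every P15 mouse was above every P6 mouse, and 11 of 12 mice at 8 weeks were above every P15 mouse. Its log2FC was 2.25 (SE 0.149, FDR 2.83e-14) from P6 to P15 and 1.08 (SE 0.130, FDR 7.10e-08) from P15 to 8 weeks. Over the whole interval it was 3.32 (SE 0.157, FDR 1.82e-18), a fitted fold of 10.01, which placed it 201st of 17612 genes by log2FC. The exons of Tlr3 overlap an antisense gene, Gm45542, by 381 bases on the opposite strand, and fragments were counted by strand.

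Tlr12, an endosomal receptor that recognises profilin of protozoan parasites, had the second largest rise from P6 to 8 weeks. It ranged from 8.26 to 20.4 CPM at P6 (median 16.8), from 23.7 to 60.1 CPM at P15 (median 41.7) and from 55.9 to 96.4 CPM at 8 weeks (median 63.8). No P15 or 8-week mouse overlapped the P6 mice, but P15 and 8 weeks overlapped. The log2FC was 1.53 (SE 0.153, FDR 3.82e-10) from P6 to P15, 0.65 (SE 0.138, FDR 3.04e-04) from P15 to 8 weeks and 2.18 (SE 0.157, FDR 9.20e-14) overall.

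Tlr13, a receptor for bacterial ribosomal RNA, rose in both intervals. Its level ranged from 50.9 to 109.8 CPM at P6 (median 68.9), from 62.7 to 194.4 CPM at P15 (median 154.9) and from 174.6 to 303 CPM at 8 weeks (median 237). In 11 of 12 P15 mice it was above every P6 mouse, and in 11 of 12 mice at 8 weeks it was above every P15 mouse. The log2FC was 1.10 (SE 0.132, FDR 1.80e-08), then 0.71 (SE 0.122, FDR 2.11e-05), and 1.80 (SE 0.136, FDR 2.57e-13) from P6 to 8 weeks.

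The receptor for unmethylated CpG DNA, Tlr9, passed the test between P6 and P15 and not between P15 and 8 weeks. The difference between these intervals was not tested. It ranged from 51.5 to 111 CPM at P6 (median 67.6), from 109.6 to 254 CPM at P15 (median 162) and from 156 to 237 CPM at 8 weeks (median 184). P6 lay below all 8-week mice and below 11 of 12 P15 mice, while the 2 later ages overlapped throughout. The log2FC was 1.29 (SE 0.140, FDR 2.16e-09) in the first interval and 0.13 (SE 0.127, FDR 0.401) in the second, with 1.42 (SE 0.141, FDR 1.39e-10) overall.

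Tlr7, the X-linked receptor for single-stranded RNA, had the highest mean RPKM of the endosomal receptors at each age, although its range overlapped the next at each. It was above Tlr9 in 10 of 10 mice at P6 and in 6 of 12 at P15, where the 2 could not be separated. At 8 weeks it was above Tlr13 in 9 of 12 mice. It ranged from 90.1 to 204 CPM at P6 (median 128), from 59.5 to 285 CPM at P15 (median 199) and from 159 to 386 CPM at 8 weeks (median 303). All 3 ages overlapped, and 10 of 12 mice at 8 weeks were above every P6 mouse. Its log2FC was 0.68 (SE 0.165, FDR 7.37e-04), then 0.50 (SE 0.154, FDR 8.51e-03), and 1.18 (SE 0.168, FDR 2.19e-07) overall.

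**Figure D2:**
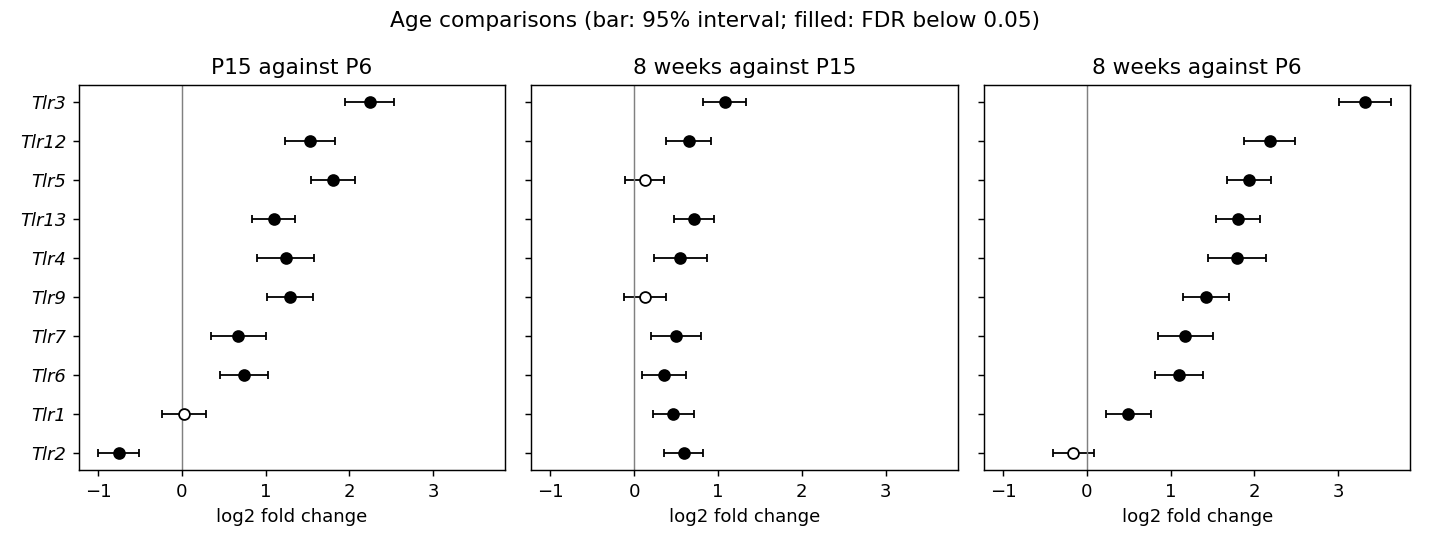
Log2FC of each receptor (horizontal axes, bars the 95% interval) for P15 against P6, 8 weeks against P15 and 8 weeks against P6, with filled points at an FDR below 0.05. Tlr3 is rightmost in all 3 panels, at 2.25, 1.08 and 3.32, and Tlr2 is the only receptor with a called fall, −0.75 at P15.

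Among the surface receptors, Tlr2 had a different course. Tlr2 binds bacterial lipoproteins as a partner of Tlr1 or Tlr6. Its level ranged from 184.2 to 374 CPM at P6 (median 238), from 99.2 to 204 CPM at P15 (median 144) and from 158 to 283 CPM at 8 weeks (median 217). P15 was the lowest age, with 10 of 12 mice at 8 weeks above every P15 mouse, and the P6 range overlapped both later ages. The log2FC was −0.75 (SE 0.124, FDR 4.37e-06) from P6 to P15 and 0.59 (SE 0.118, FDR 1.49e-04) from P15 to 8 weeks. From P6 to 8 weeks it was −0.16 (SE 0.124, FDR 0.236), with a 95% interval of −0.41 to 0.081.

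Tlr1 and Tlr6, the partners that let Tlr2 tell triacylated from diacylated lipoproteins, are neighbours on chromosome 5. Tlr1 ranged from 30.3 to 64.8 CPM at P6 (median 37.8), from 16.0 to 55.9 CPM at P15 (median 40.1) and from 41.1 to 71.6 CPM at 8 weeks (median 56.8). Its log2FC was 0.028 (SE 0.135, FDR 0.870) from P6 to P15, and 0.47 (SE 0.127, FDR 3.35e-03) from P15 to 8 weeks. From P6 to 8 weeks Tlr1 rose by the least of the called receptors, with a log2FC of 0.50 (SE 0.136, FDR 1.62e-03).

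Tlr6 ranged from 16.4 to 32.2 CPM at P6 (median 18.4), from 12.7 to 45.9 CPM at P15 (median 31.8) and from 30.2 to 50.3 CPM at 8 weeks (median 42.6). In 11 of 12 mice at 8 weeks it was above every P6 mouse. The log2FC was 0.74 (SE 0.146, FDR 5.71e-05) from P6 to P15 and 1.10 (SE 0.147, FDR 6.88e-08) from P6 to 8 weeks. Its change from P15 to 8 weeks, 0.36 (SE 0.135, FDR 0.0298), was the least secure of the calls. It was lost when any 1 of 10 mice was left out, with an FDR from 0.0525 to 0.0699. These were 8-week females 3, 4 and 5, 8-week males 2 and 6, P15 females 1, 2 and 5, and P15 males 1 and 2. Of the 100-base windows of their annotated transcripts, 7.89% in Tlr1 and 7.09% in Tlr6 are identical between the genes, with a longest shared run of 229 bases. A fragment that lies wholly in such a run cannot be assigned to either, so levels of this pair are less certain. The other 8 receptors share no 100-base window with another annotated gene.

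Tlr4, the receptor for lipopolysaccharide of Gram-negative bacteria, ranged from 15.9 to 36.5 CPM at P6 (median 22.0), from 14.6 to 70.4 CPM at P15 (median 51.4) and from 40.9 to 102 CPM at 8 weeks (median 76.5). Every 8-week mouse and 11 of 12 P15 mice were above every P6 mouse. The log2FC was 1.24 (SE 0.175, FDR 3.30e-07), then 0.55 (SE 0.159, FDR 5.27e-03), and 1.79 (SE 0.178, FDR 1.62e-10) overall.

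Tlr5, the flagellin receptor, ranged from 7.11 to 14.1 CPM at P6 (median 9.43). It ranged from 17.4 to 46.1 CPM at P15 (median 33.3) and from 29.2 to 45.0 CPM at 8 weeks (median 38.2). Every mouse at P15 and at 8 weeks was above every P6 mouse, and the 2 later ages overlapped throughout. The log2FC was 1.81 (SE 0.133, FDR 3.38e-13) from P6 to P15, 0.13 (SE 0.118, FDR 0.385) from P15 to 8 weeks and 1.93 (SE 0.134, FDR 3.20e-14) overall.

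Counted without any model, every P15 mouse was above every P6 mouse for 3 receptors, against 5.25% of all genes. Every 8-week mouse was above every P6 mouse for 6, against 14.8% of all genes, and for no receptor was every 8-week mouse above every P15 mouse, against 1.65% of all genes.

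Levels of different genes were compared as RPKM, the normalised CPM per kilobase of annotated exon. At P6, Tlr2 led with 85.2 ± 23.9 RPKM (SD, n = 10), and its lowest mouse was above the highest mouse for Tlr7, the second at 33.3 ± 9.91. Tlr9 followed at 21.1 ± 6.43, Tlr13 at 16.9 ± 4.04 and Tlr1 at 12.4 ± 3.34. The order went on with Tlr6, Tlr12, Tlr4, Tlr3 and Tlr5, from 5.39 down to 2.06 RPKM, and all neighbours in the order overlapped except Tlr2 with Tlr7 and Tlr1 with Tlr6. At P15 the leading 3 could not be ranked, since Tlr7 (50.1 ± 14.1, n = 12), Tlr9 (49.9 ± 12.02) and Tlr2 (48.6 ± 10.4) overlapped.

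At 8 weeks, Tlr2 (73.1 ± 10.3 RPKM, n = 12), Tlr7 (70.0 ± 16.5), Tlr13 (56.8 ± 7.94) and Tlr9 (54.6 ± 7.07) formed a leading group whose neighbours overlapped. No value in this group was as low as the highest of Tlr12, which came next at 20.7 ± 3.43, with Tlr3 at 20.6 ± 4.41. Tlr3 thus moved from the ninth place of the 10 at P6 to the sixth at 8 weeks, where it stood above Tlr1 in 10 of 12 mice.

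Within a library the ratio of receptors does not depend on how libraries are scaled. The endosomal receptors Tlr3, Tlr7, Tlr9, Tlr12 and Tlr13 held 41.8% ± 1.84 of the summed receptor RPKM at P6 (SD, n = 10). They held 64.9% ± 1.34 at P15 and 64.5% ± 1.77 at 8 weeks (n = 12 each). The highest P6 mouse was at 44.9% and the lowest mouse of the later ages at 60.6%, so P6 was separate from both later ages, which overlapped. Tlr2 alone held 45.4% ± 2.43 at P6, 20.1% ± 2.18 at P15 and 21.3% ± 2.54 at 8 weeks. With Tlr2 left out of the sum, the endosomal share was 76.4% ± 1.07 at P6, 81.2% ± 1.59 at P15 and 82.0% ± 0.985 at 8 weeks. The highest P6 mouse was then at 77.7% and the lowest later mouse at 78.8%, a gap much narrower than with Tlr2 in the sum.

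The ratio of Tlr2 to Tlr6 was 15.7 ± 2.05 at P6, 5.81 ± 1.45 at P15 and 6.57 ± 1.17 at 8 weeks. That of Tlr1 to Tlr6 was 2.30 ± 0.211, 1.40 ± 0.1505 and 1.49 ± 0.0757. In both ratios P6 was above all mice of the later ages. P6 female 6, which was left out of the fits, had low levels of most receptors, such as 111.8 CPM of Tlr2 and 48.8 CPM of Tlr7 when all 35 mice were normalised together, and only 1979 CPM of summed microglial markers. Its endosomal share was 42.4% and its Tlr2 share 46.6%, both within the range of the other P6 mice.

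**Figure D3:**
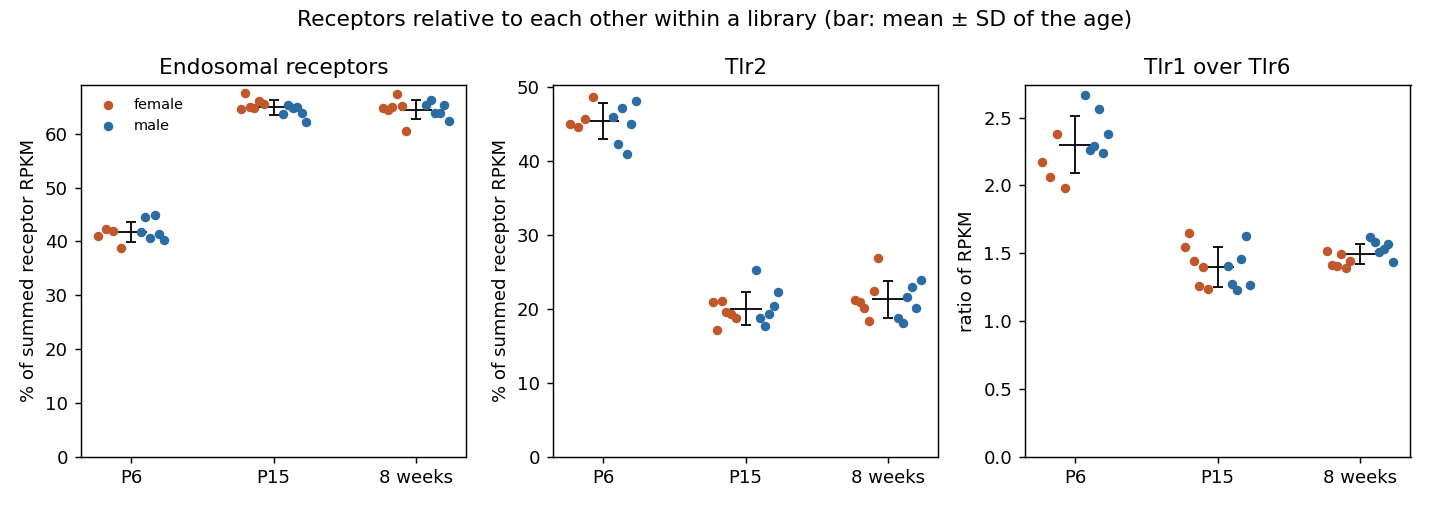
Within-library proportions by age for 34 mice (females orange, males blue, mean ± SD in black), giving the endosomal receptors and Tlr2 as % of the summed RPKM of the 10 receptors, and the ratio of Tlr1 to Tlr6 RPKM. The endosomal share is at most 44.9% at P6 and at least 60.6% later, and the other measures are highest at P6.

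The direction of several age changes depended on what the libraries were scaled to. The mean log2 CPM of the 6 microglial markers was 9.19 ± 0.320 (SD) in P6 mice, 10.7 ± 0.346 in P15 mice and 10.99 ± 0.153 in adults. That of the 8 pan-myeloid markers was 8.74 ± 0.305, 9.23 ± 0.319 and 9.50 ± 0.149. Neither list moved uniformly from P6 to 8 weeks under TMM. Itgam (log2FC 1.66), Ptprc (1.58), Cx3cr1 (1.34), Laptm5 (0.69) and Aif1 (0.49) rose. Fcer1g (0.27, FDR 0.0556), Tyrobp (0.21, FDR 0.104) and Spi1 (0.072, FDR 0.606) did not pass. The microglial markers rose by 1.21 for Sall1 to 3.10 for Tmem119. Scaled to the pan-myeloid markers, which moved the median log2FC of all genes to −0.76, 8 receptors were higher at 8 weeks than at P6 and 2 were lower (13.4% and 64.6% of all genes). The lower ones were Tlr1 (log2FC −0.27) and Tlr2 (−0.93). Scaled to the microglial markers, which moved the median of all genes to −1.80, Tlr3 (1.49, FDR 7.49e-12) and Tlr12 (0.36, SE 0.165, FDR 0.0424) were higher (3.19% of all genes). Tlr1 (−1.32), Tlr2 (−1.97), Tlr6 (−0.72), Tlr7 (−0.66) and Tlr9 (−0.37) were lower (87.7% of all genes), and Tlr4, Tlr5 and Tlr13 did not pass.

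When the average of markers of neurons and their progenitors entered the fit as a covariate, 5 receptors were higher at 8 weeks than at P6 (25.3% of all genes) and 2 were lower (23.5%). Tlr3 (3.04), Tlr12 (1.44), Tlr4 (0.92), Tlr5 (0.82) and Tlr13 (0.71) were higher, and Tlr1 (−0.68) and Tlr2 (−1.19) were lower. This covariate ranged from 4.75 to 6.47 at P6 and from 1.83 to 3.43 at 8 weeks on the log2 scale, so the ages shared no value of it and its part cannot be told apart from age. Tlr3 and Tlr12 were thus the members called higher at 8 weeks under all 4 settings, Tlr12 only narrowly under microglial scaling. Each of the 3 other settings called Tlr1 and Tlr2 lower.

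The same settings bore on the shorter intervals. From P6 to P15, scaling to the microglial markers moved the median of all genes to −1.54. It left 2 receptors higher (2.06% of all genes) and 7 lower (88.2%), the lower ones at log2FC values above that median except Tlr1 (−1.55) and Tlr2 (−2.296). Scaling to the pan-myeloid markers (median of all genes −0.52) left 6 higher (11.1%) and 2 lower (55.5%), and the neural covariate also left 6 higher (27.2%) and 2 lower (25.9%). In both, Tlr6 and Tlr7 lost their rise, with an FDR of 0.0669 and 0.389 under pan-myeloid scaling and of 0.263 and 0.201 with the covariate.

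From P15 to 8 weeks, 6 receptors were higher and 0 lower under microglial scaling (8.1% and 41.3% of all genes, median −0.29). Pan-myeloid scaling gave 5 and 0 (8.51% and 41.4%, median −0.27). With the covariate only Tlr3 was higher (log2FC 0.91, FDR 1.27e-03; 19.9% of all genes), and Tlr5 (−0.50) and Tlr9 (−0.61) were lower (19.8%).

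**Figure D4:**
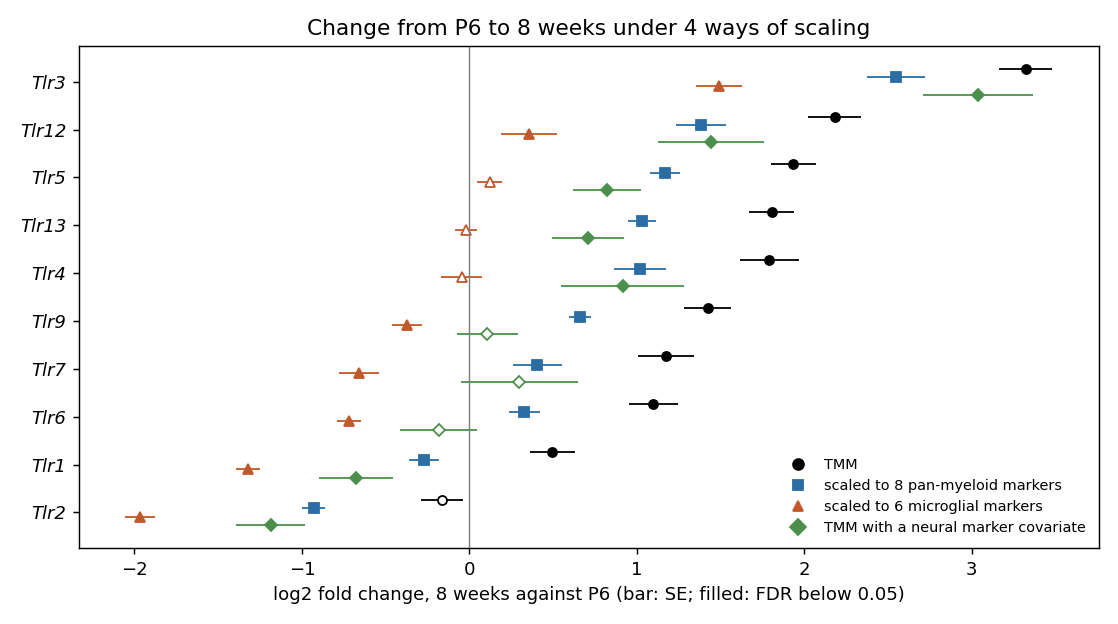
Log2FC from P6 to 8 weeks (horizontal axis, bars ± SE) of each receptor under TMM, scaling to 8 pan-myeloid markers, scaling to 6 microglial markers, and TMM with a neural marker covariate, filled at an FDR below 0.05. Tlr3 lies between 1.49 and 3.32 and is called in all 4, while Tlr7 runs from −0.66 to 1.18.

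Markers of other leukocytes were present at each age. Border macrophage and monocyte markers (9 of 9 detected) averaged 4.75, 4.90 and 4.72 log2 CPM in order of age, with summed levels of 724 to 1577, 289 to 1031 and 366 to 719 CPM. This average held members that moved in opposite directions from P6 to 8 weeks. Of the 9, Ccr2 (log2FC 3.05, FDR 4.54e-13) and Ly6c2 (2.7002, FDR 7.63e-11) rose as most receptors did, while Lyve1 (−2.57, FDR 4.10e-15), Pf4 (−1.56, FDR 1.47e-11), Mrc1 (−1.29, FDR 1.10e-07) and F13a1 (−0.60, FDR 1.16e-03) fell. Plac8 (0.27, FDR 0.215), Cd163 (−0.12, FDR 0.491) and Ms4a7 (0.046, FDR 0.772) did not pass, so neither the monocyte nor the border macrophage markers moved uniformly. Neutrophil markers (4 of 5, Ly6g not passing the filter) had 2.15, 2.60 and 2.71, with summed levels of 14.8 to 65.8, 12.9 to 85.5 and 24.2 to 186 CPM. They also moved apart, since S100a8 (log2FC 2.12, FDR 8.39e-07) and S100a9 (2.16, FDR 3.88e-07) rose from P6 to 8 weeks, whereas Camp (−0.85, FDR 0.0983) and Ngp (−0.85, FDR 0.0566) did not pass. From P15 to 8 weeks Camp (−1.53, FDR 5.40e-03) and Ngp (−1.58, FDR 1.30e-03) fell. Lymphocyte and dendritic markers (7 of 8, Xcr1 not passing) were at 0.45, 1.35 and 2.02, higher at the later ages as the receptors were, with summed levels of 19.0 to 46.6, 48.1 to 86.9 and 40.2 to 71.6 CPM. The part of these cells in the receptor levels was not tested.

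The question of whether males and females differed was tested at each age, and no receptor passed at any age. Over all genes, 0.0511% passed at P6, 0.0681% at P15 and 0.114% at 8 weeks. At an unadjusted p under 0.05, 6 receptors differed at P6, 2 at P15 and 0 at 8 weeks, beside 1250, 3200 and 518 of all 17612 genes. Leaving out single mice moved these counts to 2 to 7 at P6, 0 to 3 at P15 and 0 at 8 weeks. At P6 the count was 2 without female 1, female 2 or male 5 and 3 without male 1, and at P15 it was 0 without female 2 and 1 without any of 11 mice, P15 male 1 among them. At P6, 9 of the 10 receptors had higher means in males, with a median log2FC of 0.41 (males against females) beside 0.0020 over all genes. Tlr7 was the largest of these, at 100.2 ± 17.2 CPM in 4 females and 159.5 ± 32.8 CPM in 6 males (edgeR log2FC 0.67, SE 0.248, FDR 0.696). The microglial markers differed the same way there, at 8.97 ± 0.118 in females and 9.34 ± 0.331 in males on the log2 scale, and neuronal markers the opposite way, at 6.06 ± 0.172 and 5.57 ± 0.590. Their part in the difference was not tested.

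At P15, Tlr7 was at 237 ± 37.9 CPM in females and 172 ± 58.0 CPM in males (6 each), with the sign turned (log2FC −0.46, SE 0.218, FDR 0.265). Without P15 male 1, at 59.5 CPM, the other 5 males were at 194.8 ± 19.9 CPM and the log2FC was −0.26 (SE 0.174, FDR 0.488). Tlr12 went the other way, at 35.6 ± 8.73 CPM in females and 49.1 ± 8.61 CPM in males (log2FC 0.46, SE 0.195, FDR 0.255). For the X-linked Tlr7 the 95% interval of the log2FC, not adjusted for the number of genes, was 0.19 to 1.16 at P6, −0.89 to −0.033 at P15 and −0.37 to 0.48 at 8 weeks. For Tlr13, also X-linked, the log2FC was 0.41 at P6 (interval 0.026 to 0.79), −0.14 at P15 (−0.47 to 0.20, and a log2FC of 0.041 without P15 male 1) and 0.0030 at 8 weeks (−0.33 to 0.34). The age change of no receptor passed the test of a difference between the sexes, and neither did that of any of the 17612 genes (0% in each interval). The interaction (male minus female change) from P6 to P15 was −1.13 for Tlr7 (SE 0.330, FDR 0.152), the receptor that went from 100.2 to 237 CPM in females and from 159.5 to 172 CPM in males. Without P15 male 1 the males went to 194.8 CPM and the interaction was −0.91 (SE 0.256, FDR 0.236). For Tlr3 it was −0.99 (SE 0.280, FDR 0.152), and −0.81 (SE 0.238, FDR 0.236) without that mouse. The unadjusted p was under 0.05 for 4 receptors in the first interval, 0 in the second and 1 over the whole, and for 3593, 601 and 898 of all genes. Without P15 male 1 these counts were 3, 0 and 3, and over single mice left out they ran from 3 to 6, 0 to 1 and 1 to 3. The count over the whole interval was also 3 without 8-week female 1, and 2 without 8-week male 2, P6 female 3 or P6 male 4, and that of the second interval was 1 without 8-week male 4.

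Whether more of the genes that serve the receptors were higher or lower at 8 weeks depended on the scaling, as it did for several receptors. Of 41 genes listed for the pathway, all were tested, and under TMM normalisation 26 were higher and 9 lower at 8 weeks than at P6, with a median log2FC of 0.51 (0.038 over all genes). Over all genes 37.8% and 36.6% were higher and lower in that comparison. From P6 to P15, 21 rose and 9 fell (30.4% and 31.4% of all genes), and from P15 to 8 weeks 13 rose and 4 fell (24% and 23.9%). Under the other settings more were lower than higher at 8 weeks than at P6. Scaled to the pan-myeloid markers 7 were higher and 24 lower (13.4% and 64.6% of all genes), with a median log2FC of −0.27 beside −0.76 over all genes. Scaled to the microglial markers 1 was higher and 40 lower (3.19% and 87.7%), with a median of −1.31 beside −1.80. With the neural covariate 2 were higher and 20 lower (25.3% and 23.5%), with a median of −0.41 beside 0.075. Of the 26 genes higher under TMM, 25 were lower under microglial scaling, 9 under pan-myeloid scaling and 7 with the covariate. Called lower in all 3 were 6 of them, Cd180, Ly86, Irak4, Lgmn, Pik3ap1 and Ticam2. Of the 9 lower under TMM, 8 were lower under every setting, and Sarm1 was not. The values that follow are for 8 weeks against P6 under TMM unless another setting is named.

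The 4 interferon regulatory factors that act below the receptors were all higher, led by Irf8 (log2FC 1.23, FDR 7.02e-11) and Irf5 (1.03, FDR 2.27e-09). Under pan-myeloid scaling Irf8 and Irf5 were still higher and Irf3 and Irf7 did not pass, under microglial scaling all 4 were lower, and with the neural covariate none passed.

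Of 6 genes for trafficking and folding, 5 were higher. Unc93b1, which carries the endosomal receptors out of the endoplasmic reticulum, rose from 754 to 1462 CPM at P15 and was at 1458 CPM at 8 weeks (log2FC against P6 0.98, FDR 2.39e-08). Cnpy3, a chaperone for several receptors, had a log2FC of 0.87 (FDR 6.45e-09). Of 7 genes for receptor processing and nucleic acid handling, 3 were higher and 3 lower. Among these lysosomal enzymes Ctss rose (log2FC 2.01, FDR 4.88e-14) and was the pathway gene called higher under all 4 settings, whereas Ctsl (−0.89, FDR 9.76e-09) fell.

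Of 6 surface accessory genes, 4 were higher and 2 lower. Cd14 and Ly96, which present lipopolysaccharide to Tlr4, had a log2FC of 1.09 (FDR 8.68e-10) and 1.30 (FDR 1.49e-06). The lipopolysaccharide carrier Lbp fell (log2FC −2.63, FDR 4.45e-10), from 2.57 to 0.458 CPM. Cd180, a relative of the receptors without a signalling domain, had 0.31 (FDR 0.0490), and its partner Ly86 had 0.51 (FDR 2.94e-04), but both were lower under the other settings, Cd180 at −0.46 and Ly86 at −0.27 under pan-myeloid scaling, at −1.51 and −1.31 under microglial scaling and at −0.94 and −0.58 with the covariate.

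Of 6 adaptors, 4 were higher and 1 lower. Myd88, used by every member except Tlr3, had a log2FC of 0.65 (FDR 2.75e-05), and Tirap, which links it to the membrane, had 0.79 (FDR 7.36e-09). Neither passed under pan-myeloid scaling (−0.12 and −0.0051) or with the covariate (−0.41 and 0.031), and both were lower under microglial scaling (−1.15 and −1.05). Ticam1, an adaptor that Tlr3 uses, did not pass under TMM (−0.083, FDR 0.571) although Tlr3 itself had the largest rise. It was lower under pan-myeloid scaling (−0.84), under microglial scaling (−1.87) and with the covariate (−1.04, FDR 3.68e-04). Sarm1, best known from neurons, had −1.93 (FDR 1.26e-08), but with the neural covariate its sign turned and it did not pass (0.44, FDR 0.278). Of 8 kinases and ligases, 4 were higher and 1 lower, with Irak2 (1.27, FDR 4.20e-12) and Irak3 (0.90, FDR 1.12e-05) leading. Of 4 genes listed under restraint of signalling, Tnfaip3 (0.55, FDR 0.0115) and Peli1 were higher and Sigirr (−1.31, FDR 6.69e-10) and Tollip were lower. Whether that label fits Peli1 in these cells was not tested. Tnfaip3 was lower under microglial scaling (−1.24) and with the covariate (−0.89, FDR 0.0293), and did not pass under pan-myeloid scaling (−0.21, FDR 0.184). Peli1 was lower under pan-myeloid (−0.42) and microglial scaling (−1.47) and did not pass with the covariate (0.048). Sigirr and Tollip were lower under every setting.

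**Figure D5:**
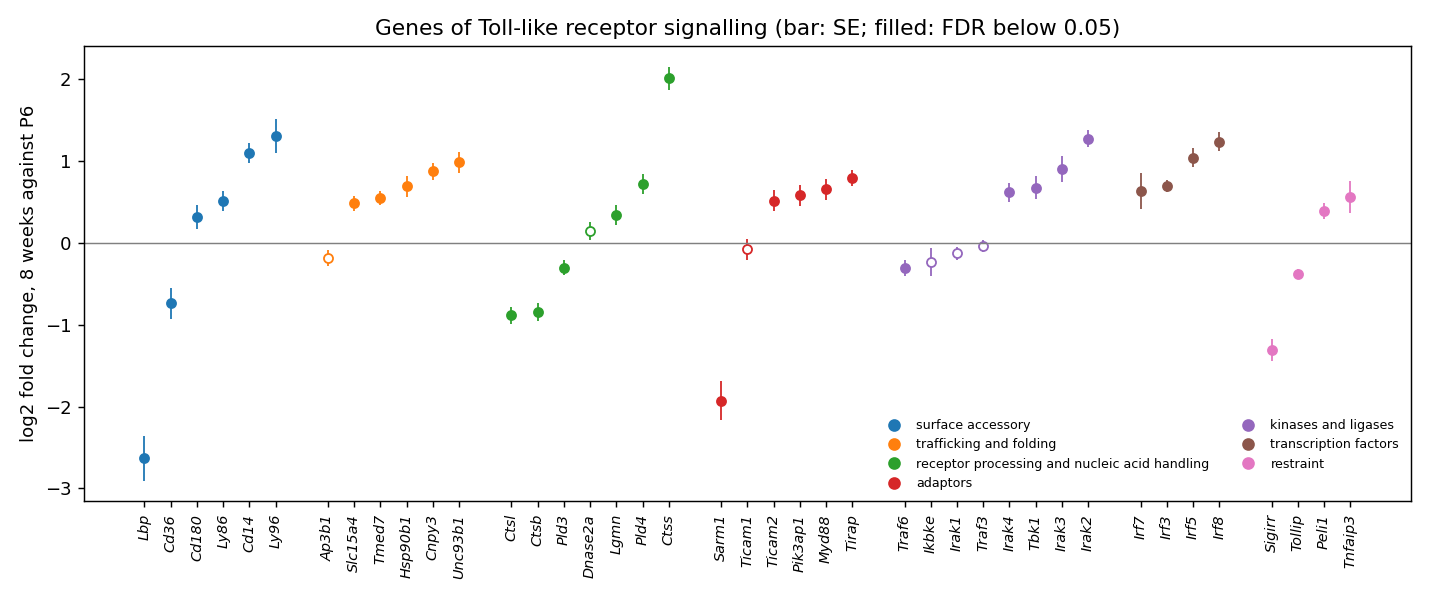
Log2FC from P6 to 8 weeks (vertical axis, bars ± SE) of 41 genes of Toll-like receptor signalling in 7 groups, filled at an FDR below 0.05, under TMM normalisation. The 4 transcription factors all lie above 0, the surface accessory genes run from −2.63 for Lbp to 1.30 for Ly96, and 6 genes are open.

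Within ages, receptors varied together to different degrees. Over 34 mice, after subtracting the mean of each age and sex, Tlr4 and Tlr7 had a Pearson r of 0.96 on the log2 scale, Tlr1 and Tlr13 0.95, and Tlr1 and Tlr6 0.95. The lowest values were those of Tlr12 with Tlr7 (−0.23), Tlr3 (−0.22) and Tlr4 (−0.20). Tlr12 was positive with 6 of the other 9, up to 0.26 with Tlr2 and 0.42 with Tlr9. Some pairs without Tlr12 were also low, such as Tlr3 with Tlr9 (0.12) and Tlr2 with Tlr3 (0.19). These points share library depth and cell makeup, and the r with the mean of the microglial markers ran from 0.29 for Tlr12 and 0.54 for Tlr3 to 0.95 for Tlr6. P15 male 1 was below its group mean for all 10 receptors, with a mean deviation of −0.95 on the log2 scale, the largest of any mouse. No r was computed without this mouse, so its part in these values was not tested.

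The genes most like each receptor by the same measure were Plxdc2 (0.96) and Golm1 (0.96) for Tlr1, B4galt1 (0.93) and Bcor (0.92) for Tlr2, and Itgav (0.94) and Tmem106b (0.94) for Tlr3. They were Adam10 (0.98) and Tgfbr1 (0.98) for Tlr4, Pik3cg (0.94) and Tor1aip1 (0.94) for Tlr5, Sall1 (0.97) and Fli1 (0.96) for Tlr6, and Tgfbr1 (0.98) and Rab8b (0.98) for Tlr7. For Tlr9 they were Pik3ap1 (0.96) and Inpp5d (0.96), for Tlr12 Scarf2 (0.83) and Endod1 (0.83), and for Tlr13 Plxdc2 (0.96) and Tlr1 (0.95).

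Promoter sequence was taken from RefSeq (GRCm38.p6), which matched 8 of the 10 receptors. The 4 windows shown are those with at most 5 of the 250 bases before the start inside the annotated gene, for 3 receptors that passed the 2-fold test by 8 weeks (Tlr5, Tlr9, Tlr12) and for Tlr1, the smallest called rise. Capitals mark GAGGAA, the core bound by the myeloid factor PU.1, searched on both strands.
Tlr5, chr1:182954538-182954787, plus strand: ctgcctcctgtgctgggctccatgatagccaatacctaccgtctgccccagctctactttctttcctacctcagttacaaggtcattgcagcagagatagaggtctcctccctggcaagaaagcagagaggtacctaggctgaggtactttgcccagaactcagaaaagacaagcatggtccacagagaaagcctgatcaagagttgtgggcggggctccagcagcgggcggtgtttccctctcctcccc
Tlr9, chr9:106222348-106222597, plus strand: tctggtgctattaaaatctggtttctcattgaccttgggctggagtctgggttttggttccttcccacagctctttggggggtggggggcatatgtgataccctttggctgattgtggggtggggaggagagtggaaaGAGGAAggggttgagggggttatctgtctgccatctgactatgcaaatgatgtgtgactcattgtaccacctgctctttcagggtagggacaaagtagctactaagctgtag
Tlr12, chr4:128618620-128618869, minus strand: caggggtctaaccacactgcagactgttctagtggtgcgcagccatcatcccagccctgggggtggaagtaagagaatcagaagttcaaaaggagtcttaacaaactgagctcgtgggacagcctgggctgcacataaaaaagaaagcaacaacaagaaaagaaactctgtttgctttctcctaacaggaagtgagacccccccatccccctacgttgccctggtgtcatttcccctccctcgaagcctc
Tlr1, chr5:64933559-64933808, minus strand: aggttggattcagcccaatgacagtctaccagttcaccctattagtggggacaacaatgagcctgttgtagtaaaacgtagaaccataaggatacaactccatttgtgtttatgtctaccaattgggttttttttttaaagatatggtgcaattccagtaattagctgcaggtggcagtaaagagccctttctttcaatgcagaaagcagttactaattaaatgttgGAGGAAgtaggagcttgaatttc
The core lay 112 bases before the start in Tlr9 and 23 bases before it in Tlr1, and was absent from the windows of Tlr5 and Tlr12. Among all 32851 promoters of the same length, 23.3% held it, and among the receptors it was in 3 of 10 promoters, the third being Tlr13. The AP-1 element TGANTCA was in 1 of the 10 (Tlr9) and in 6.75% of all.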

How the data were processed

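Microglia were captured from 35 mice by CD45 immunopanning, and directional mRNA libraries were sequenced as paired-end reads. According to the study's methods, reads were aligned to GRCm38 with STAR and counted by strand with featureCounts in Subread. The release of the gene annotation is not given in the sources used here. The authors deposited raw counts per gene, which were neither filtered nor normalised. Mice were assigned to groups from their labels for age and sex, which name no batch and do not say that mice came from separate litters.

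Gene names, coordinates and exon lengths came from GENCODE M21, which named 55141 of the 55401 identifiers. A gene was kept if 5 or more mice had 0.5 CPM or more, and libraries were scaled by TMM. A robust edgeR (4.0.16, R 4.3.3) quasi-likelihood fit had 1 mean for each of 6 age and sex groups, and age contrasts averaged the sexes. Adjusted p-values (Benjamini-Hochberg) cover all 17612 genes, and glmTreat tested against a 2-fold change. Log2 CPM used a prior count of 2, and 95% intervals are from the SE and the normal distribution. The fit was tested on simulated data. Within groups no library was a copy of another, as the smallest chi-square per gene was 11.8 over the 85 pairs of mice that share a group.

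The receptors, the pathway genes and the marker lists were chosen with earlier results of these data known. Genes named in the text were all receptors, the 2 pathway genes of each group with the largest change from P6 to 8 weeks among those past the test, 6 pathway genes listed by name (Unc93b1, Cd14, Ly96, Myd88, Cd180, Ly86), the marker lists, and the 2 genes most like each receptor. Ticam1, Peli1 and Tollip lie outside this rule and were named after their values were seen. Alternatives were limma-voom (limma 3.58.1), DESeq2 (1.42.0), other scalings, other filters, all 35 mice, a neural marker covariate, a replicate block and mice left out. A depth of 3 counts, between 0.0770 and 0.129 CPM, covers counting error alone. Figures used Python 3.11.15 and matplotlib 3.10.9.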

Additional observations from a re-analysis of the deposited data

Results flagged for a closer look

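In groups of 4 to 6 mice of the same age and sex, 9 of 60 tests of a receptor's highest or lowest mouse passed Dixon's test at 95%, where chance gives about 1 in 20. Of these, 6 were P15 male 1, the lowest of 6 males for Tlr1 (16.0 CPM), Tlr3 (22.9 CPM), Tlr4 (14.6 CPM), Tlr6 (12.7 CPM), Tlr7 (59.5 CPM) and Tlr13 (62.7 CPM). The next lowest of the P15 males was at 36.4 CPM for Tlr1 and 165.9 CPM for Tlr7. The same mouse had 120.8 CPM of Tlr9 and 47.4 CPM of Tlr12, within the range of the other P15 males for Tlr12. Its neutrophil markers were also the highest at P15, at a mean log2 CPM of 4.12.

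P6 female 3 was the highest of 4 females for Tlr7 (125.9 CPM, the next at 93.4 CPM) and the lowest for Tlr12 (8.85 CPM, the next at 16.8 CPM). At 8 weeks, male 2 was the highest of 6 for Tlr13 (288 CPM, the next at 247 CPM).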

How the results depend on the processing

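Of the 30 age changes (10 receptors in 3 comparisons), all 30 kept their direction and call with all 35 mice, DESeq2 size factors, limma-voom, DESeq2, at least 10 counts in every mouse, and the replicate block. Library size alone added a called fall of Tlr2 from P6 to 8 weeks (1 lower, log2FC −0.30, FDR 8.87e-03). Without a filter on low counts Tlr6 lost its call from P15 to 8 weeks (0.34, FDR 0.0546). Under the 2-fold test 3 receptors were higher and 0 lower at P15 than at P6, and 0 were higher at 8 weeks than at P15.

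Scaled to microglial markers, which moved the median of all genes to −1.54 at P15 and −1.80 at 8 weeks against P6, 2 receptors were higher and 7 lower at P15, and 2 higher and 5 lower at 8 weeks. The signs that turned from P6 to P15 were those of Tlr1 (−1.55), Tlr4 (−0.35), Tlr6 (−0.84), Tlr7 (−0.90), Tlr9 (−0.25), Tlr12 (−0.0080) and Tlr13 (−0.48). From P6 to 8 weeks they were those of Tlr1 (−1.32), Tlr4 (−0.045), Tlr6 (−0.72), Tlr7 (−0.66), Tlr9 (−0.37) and Tlr13 (−0.019). Scaled to pan-myeloid markers, 2 were lower at P15 and 2 at 8 weeks than at P6, and 5 were higher at 8 weeks than at P15. Tlr1 turned, to −0.51 at P15 and −0.27 at 8 weeks, and Tlr6 and Tlr7 lost their rise from P6 to P15, as they did with the neural covariate. With the neural covariate 2 were lower at P15 than at P6, 1 was higher and 2 lower at 8 weeks than at P15, and 5 were higher and 2 lower at 8 weeks than at P6. Signs turned for Tlr1 (−0.48 at P15, −0.19 from P15 to 8 weeks, −0.68 overall), for Tlr5 (−0.50), Tlr6 (−0.36), Tlr7 (−0.0027) and Tlr9 (−0.61) from P15 to 8 weeks, and for Tlr6 (−0.18) overall.

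The counts of the 41 pathway genes, recomputed after the data were seen, moved with these settings, given here for P15 against P6, 8 weeks against P15 and 8 weeks against P6. Microglial scaling gave 0, 6 and 1 higher and 41, 18 and 40 lower, pan-myeloid scaling 10, 8 and 7 higher and 24, 19 and 24 lower, and the neural covariate 10, 4 and 2 higher and 15, 24 and 20 lower.

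Mouse numbers did not pair the mice. Over 80 same-numbered pairs the correlation of deviations ran from −0.54 to 0.69 (median 0.033), and with the replicate block 8 receptors were higher and 1 lower at P15 than at P6, 8 and 0 at 8 weeks than at P15, and 9 and 0 over the whole interval. Leaving out single mice, part of it chosen after the data were seen, gave 7 to 8 receptors higher from P15 to 8 weeks, 7 without each of the 10 mice whose removal ended the call of Tlr6, and left the other counts of age and sex differences at an FDR below 0.05 as they were, while counts of sex differences at an unadjusted p moved as given above. As to depth, the lowest count of a receptor in any mouse was 212 fragments.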

Other observations

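Receptors of the endosome did not vary as 1 block within an age. Among the mice at 8 weeks, male 4 had the lowest Tlr3 (60.3 CPM) and Tlr4 (40.9 CPM) and the highest Tlr9 (237 CPM) and Tlr12 (96.4 CPM). P15 female 2 had the highest Tlr3 at P15 (75.4 CPM) and the lowest Tlr9 (109.6 CPM) and Tlr12 (23.7 CPM), with Tlr4 near the P15 median (51.1 CPM, median 51.4). The ratio of Tlr7 to Tlr9 by RPKM was 0.600 in the first of these mice and 1.90 in the second. It ranged from 1.17 to 2.37 at P6, from 0.420 to 1.90 at P15 and from 0.600 to 1.79 at 8 weeks, whereas the endosomal share stayed within 60.6% and 67.7% at the later ages. Over the 34 mice, with age and sex means subtracted, the Pearson r of Tlr7 with Tlr9 was 0.41, and with Tlr3 it was 0.82. These mice were picked after their values were seen. Of the 12 mice at 8 weeks, male 4 also had the highest lymphocyte and dendritic (mean log2 CPM 3.002), endothelial (5.28) and pan-myeloid markers (9.74) and the lowest astrocyte markers (6.55). P15 female 2 had the highest neuronal (6.53), neural progenitor (4.98) and astrocyte markers (8.17) at P15, and the part of these cells was not tested.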
